A study of Mus musculus with 4 samples.

Results

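In RNA sequencing libraries made from sorted regulatory T (Treg) cells, 38 transcripts of dendritic cells, macrophages and monocytes were followed from library to library. The 38 genes were chosen by symbol from a table of 27179 genes, with their difference between the genotypes already known, so that difference is given as a description and carries no p-value for any of them. They fall into 12 dendritic genes, 9 macrophage and monocyte genes and 17 genes shared by myeloid cells. The CD4+Foxp3+ Treg cells were taken from C57BL/6 mice, from the spleen together with peripheral lymph nodes. Of the 4 libraries, 2 are labelled P65KO, for the loss of RelA (p65), the NF-kB subunit encoded by Rela, and 2 are labelled WT. No treatment is given for either genotype, and the labels name no age, no Cre driver and no number of mice behind a library. Replicates are numbered in the labels, which do not say that they came from separate mice, so the spread between them may be technical.

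Dendritic cells take up antigen, carry it to T cell areas and present it to T cells, and Treg cells are in close contact with them there. Conventional dendritic cells are commonly divided into a cross-presenting type (cDC1, marked by Xcr1, Clec9a, Batf3 and Irf8) and a type that mainly primes CD4+ T cells (cDC2, marked by Sirpa and several C-type lectins). Macrophages and monocytes depend on the receptor Csf1r and carry lysosomal and phagocytic proteins, and myeloid cells of both kinds need the transcription factor PU.1, encoded by Spi1. In bulk RNA, fewer cells of a type and less RNA per cell cannot be told apart, which holds for every value given here.

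The libraries held 4598244 and 4624230 counts in P65KO and 4513863 and 4612500 counts in WT, so that 3 counts, the floor used here, were worth 0.646 to 0.664 CPM, the counts scaled to a common library size. The 12 Treg and T cell marker genes summed to 7402 and 7874 CPM in the P65KO libraries and to 8158 and 8168 CPM in the WT libraries, more than any other marker list in the same library. Rela itself had 820 and 909 counts in P65KO and 875 and 806 counts in WT. Counts over a whole gene do not check a deletion of some of its exons. The genotypes also differed in sex-linked transcripts, with Xist at 0 and 2 counts in P65KO and 494 and 608 counts in WT, and Ddx3y at 302 and 404 counts in P65KO and 0 counts in both WT libraries. Genotype and sex of the mice cannot be told apart in these libraries. Of 11172 genes tested with edgeR's quasi-likelihood test, 2310 (20.7%) passed a Benjamini-Hochberg adjusted p of 0.05.

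The P65KO libraries also stood apart from each other in these transcripts. The 38 genes summed to 2371 CPM in P65KO replicate 1 and 1330 CPM in P65KO replicate 2, against 980.8 and 1096 CPM in WT. Where leaving out a library moved a fitted difference by more than 1.5 times, the value without it is given beside the gene.

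All 38 genes were in the table, and 31 passed the filter on low counts. Of these 31, 23 were past the threshold in the higher direction in P65KO, beside 8.996% of all genes tested, 1 was past it in the lower direction, beside 11.7%, and 7 did not pass. Both P65KO libraries lay above both WT libraries for 27 of the 38 genes, beside 29.7% of all genes tested. The 38 include 7 genes under the filter, a kind of gene that this share leaves out. Nothing is read from these counts, because the genes were picked with this comparison known. The 7 genes under the filter were Siglech, Xcr1, Clec9a, Batf3, Cd14, Fcgr1 and C1qb, and the single gene in the lower direction was Cebpa. Of the genes past the threshold on the higher side, Tlr7 had the smallest difference, at 0.64 on the log2 scale. The positive differences of genes that did not pass were 0.49 for Vcam1, 0.80 for Zbtb46 and 1.79 for Fcgr3.

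**Figure D1:**
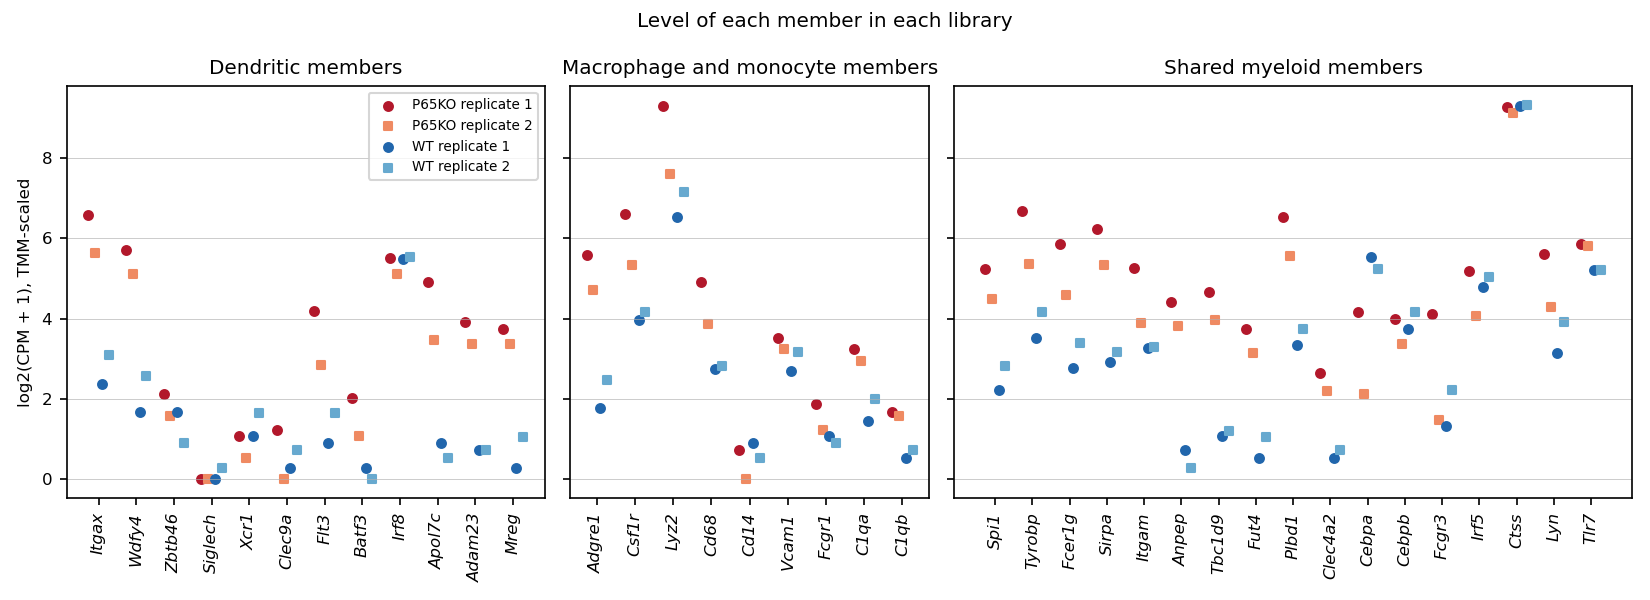
Level of each of the 38 genes in each library, as log2 of CPM plus 1 with TMM scaling, in panels for dendritic, macrophage and monocyte, and shared myeloid genes. Points are single libraries, P65KO in red and orange and WT in blue. Itgax, Apol7c, Spi1 and Anpep have both P65KO points far above both WT points, Irf8 and Ctss lie close together in all 4 libraries, and Cebpa is below WT in both P65KO libraries.

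Upstream sequence is shown for a gene far above WT (Itgax, the integrin chain CD11c), a neighbouring gene on the same strand with a smaller difference (Itgam, the chain CD11b) and a gene nearly level between the genotypes (Ctss, the lysosomal protease cathepsin S). The windows are the 250 bases before a start annotated in RefSeq (GRCm38.p6), 5′ to 3′ on the plus strand, at chr7:128129300-128129549 for Itgax, chr7:128062390-128062639 for Itgam and chr3:95526536-95526785 for Ctss. The Itgax gene as a whole is annotated from 128129526, so the last bases of its window lie inside the gene. Capitals mark the letters GAGGAA, a short form of the sequence bound by PU.1, on either strand, so that TTCCTC is a match on the other strand.
Itgax: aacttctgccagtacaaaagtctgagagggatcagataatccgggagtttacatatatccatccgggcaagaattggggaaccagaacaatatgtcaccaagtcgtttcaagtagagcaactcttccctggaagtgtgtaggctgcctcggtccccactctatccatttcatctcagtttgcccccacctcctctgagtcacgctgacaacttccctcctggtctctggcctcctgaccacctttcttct
Itgam: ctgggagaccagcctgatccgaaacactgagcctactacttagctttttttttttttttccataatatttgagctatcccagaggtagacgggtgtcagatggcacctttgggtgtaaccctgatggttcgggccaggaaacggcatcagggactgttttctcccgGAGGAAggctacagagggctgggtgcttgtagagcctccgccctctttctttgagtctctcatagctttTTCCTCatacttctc
Ctss: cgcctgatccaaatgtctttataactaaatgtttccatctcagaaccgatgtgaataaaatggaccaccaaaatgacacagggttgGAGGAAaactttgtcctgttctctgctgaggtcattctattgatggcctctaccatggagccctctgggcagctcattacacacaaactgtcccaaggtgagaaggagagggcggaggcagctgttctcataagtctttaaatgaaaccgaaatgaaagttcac

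The Itgax window held no match. The Itgam window held 2 matches, which began 84 bases before the start and, on the other strand, 15 bases before it. The Ctss window held 1 match, 164 bases before the start. Windows matched 28 of the 38 genes, and GAGGAA was present in 7 of them, in 2 of the 15 genes past the threshold in the higher direction and 5 of the 13 others, beside 25.9% of 27025 genes with a window. The others include genes too low to be tested. Those 5 were Batf3, Fcgr1 and C1qb, which were under the filter on low counts, and Fcgr3 and Ctss, which did not pass. The longer form GAGGAAGT, which contains GAGGAA, was in 0 of the 28, beside 2.79% of all genes. Searched on both strands in the same way, the C/EBP form TTGCNNAA was in 3 of the 28, beside 10.8% of all genes. These are matches of letters in a short window and do not show binding.

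Among the dendritic genes, Itgax, the surface integrin by which dendritic cells are usually sorted, had 427 and 219 counts in P65KO and 19 and 35 counts in WT. The P65KO libraries did not overlap with WT, and replicate 1 of P65KO was the highest of all. Its level averaged 71.3 ± 32.3 CPM in P65KO and 5.83 ± 2.41 CPM in WT (SD, n = 2 each), a fitted difference of 3.61 ± 0.33 on the log2 scale (SE). Wdfy4, a protein needed for cross-presentation by cDC1, had 235 and 152 counts in P65KO and 10 and 23 counts in WT, a difference of 3.57 on the log2 scale and 4.29 without WT replicate 2. It was ordered as Itgax was, with P65KO replicate 1 highest and WT replicate 1 lowest.

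Flt3, the growth factor receptor on which dendritic cell development depends, had 78 and 28 counts in P65KO and 4 and 10 counts in WT. The groups did not overlap, and the difference of 2.93 on the log2 scale became 2.02 without P65KO replicate 1 and 3.715 without WT replicate 2. Apol7c, an apolipoprotein L family gene of mouse dendritic cells, had 131 and 45 counts in P65KO and 4 and 2 counts in WT, a difference of 4.85 that became 3.89 without P65KO replicate 1. Its relatives did not share that order. Apol7b had 61 and 63 counts in P65KO and 89 and 69 in WT, Apol7e had 165 and 159 in P65KO and 242 and 224 in WT, and Apol7a had 0 in all 4. These relatives were chosen after their values were seen, and how the counting divided reads among similar copies was not tested.

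Adam23, a metalloprotease-like adhesion protein, had 64 and 42 counts in P65KO and 3 counts in each WT library, a difference of 4.12 on the log2 scale. Mreg, which encodes melanoregulin, a protein of organelle transport, had 56 and 42 counts in P65KO and 1 and 5 counts in WT, a difference of 4.01. In both genes every WT library was near the floor, so the size of the difference rests on a few WT counts. For Mreg, leaving out WT replicate 1 gave 3.30 and leaving out WT replicate 2 gave 5.48.

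The genes that define cDC1 most strictly were near the floor. Xcr1, the chemokine receptor of cDC1, had 5 and 2 counts in P65KO and 5 and 10 in WT, and Clec9a, their receptor for dead cells, had 6 and 0 counts in P65KO and 1 and 3 in WT. The groups overlapped for both, and neither passed the filter. Batf3, the transcription factor required for cDC1, had 14 and 5 counts in P65KO and 1 and 0 counts in WT, with no overlap, and its summed counts gave a ratio of 19.4 with an exact 95% interval of 3.09 to 807. Siglech, a marker of plasmacytoid dendritic cells, had 0 counts in both P65KO libraries and 0 and 1 in WT, so that it was under the floor in all 4. Zbtb46, the transcription factor that separates conventional dendritic cells from other myeloid cells, had 15 and 9 counts in P65KO and 10 and 4 in WT, with overlapping groups. Its difference of 0.80 ± 0.58 on the log2 scale (SE) became 1.59 without WT replicate 1.

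Irf8, which drives cDC1 and plasmacytoid dendritic cells and is also expressed in lymphocytes, had 201 and 153 counts in P65KO and 202 and 212 counts in WT. The groups were close, at 39.1 ± 7.39 CPM in P65KO and 44.7 ± 1.26 CPM in WT (SD, n = 2 each), and the difference of -0.19 on the log2 scale did not pass. Irf8 made up most of the dendritic sum in WT. With all 12 dendritic genes the sum was 271.7 and 154.3 CPM in P65KO and 56.43 and 66.28 CPM in WT, a ratio of 3.47 between the means. Without Irf8 the sum was 227.4 and 120.5 CPM in P65KO and 12.59 and 20.66 CPM in WT, a ratio of 10.5.

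Among macrophage and monocyte genes, Adgre1, which encodes the macrophage surface protein F4/80, had 212 and 113 counts in P65KO and 11 and 21 counts in WT. The groups did not overlap, and the difference of 3.37 on the log2 scale was the largest among the 6 genes of the class that could be fitted. Csf1r, the receptor for the macrophage growth factor CSF1, had 437 and 177 counts in P65KO and 67 and 79 in WT. Its difference was 2.10 on the log2 scale and 1.31 without P65KO replicate 1.

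Lyz2, the lysozyme of macrophages, monocytes and neutrophils, was the most abundant gene of its class, with 2880 and 872 counts in P65KO and 419 and 655 counts in WT. P65KO replicate 2 stood much nearer to WT replicate 2 than to the other P65KO library. The mean was 414 ± 313 CPM in P65KO and 116 ± 35.4 CPM in WT (SD, n = 2 each), and the difference of 1.84 on the log2 scale became 0.74 without P65KO replicate 1 and 2.45 without P65KO replicate 2. The nearly identical gene Lyz1, chosen after its values were seen, had 80 and 24 counts in P65KO and 12 and 19 in WT, in the same order of libraries, and reads of the pair cannot be assigned with certainty. Cd68, a lysosomal glycoprotein of macrophages, had 133 and 61 counts in P65KO and 26 and 28 in WT, a difference of 1.87 that became 1.21 without P65KO replicate 1.

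Tissue macrophage genes were low. C1qa, a chain of complement C1q that macrophages secrete, had 38 and 30 counts in P65KO and 8 and 14 in WT, with a difference of 1.65 on the log2 scale. C1qb, another chain of the same protein, had 10 and 9 counts in P65KO and 2 and 3 in WT, a ratio of 3.89 with an exact 95% interval of 1.40 to 13.3. For both chains the groups did not overlap, and the P65KO libraries were nearly level with each other. Vcam1, an adhesion molecule of splenic red pulp macrophages and of stromal cells, had 47 and 38 counts in P65KO and 25 and 37 in WT, which almost touched, and its difference of 0.49 did not pass. Fcgr1, the high-affinity receptor for IgG, had 12 and 6 counts in P65KO and 5 and 4 in WT. Cd14, the co-receptor for lipopolysaccharide that monocytes carry, had 3 and 0 counts in P65KO and 4 and 2 in WT, so that all 4 libraries were close to the floor.

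The macrophage and monocyte sum was 831.9 and 289.2 CPM in P65KO and 123.1 and 181.4 CPM in WT, a ratio of 3.68. Without Lyz2 it was 196.7 and 96.11 CPM in P65KO and 32.12 and 40.45 CPM in WT, a ratio of 4.04.

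Of the genes shared by myeloid cells, Spi1, which encodes PU.1, had 166 and 97 counts in P65KO and 17 and 28 counts in WT. The groups did not overlap, and the level was 29.0 ± 10.7 CPM in P65KO and 4.86 ± 1.65 CPM in WT (SD, n = 2 each), a difference of 2.57 ± 0.30 on the log2 scale (SE). The adaptors that pair with activating receptors stood in the same order. Tyrobp (DAP12) had 463 and 180 counts in P65KO and 48 and 78 in WT, and Fcer1g, the common gamma chain of Fc receptors, had 257 and 105 counts in P65KO and 27 and 44 in WT. Both differed by 2.38 on the log2 scale, and without P65KO replicate 1 by 1.55 for Tyrobp and 1.60 for Fcer1g. In both, P65KO replicate 1 was highest, P65KO replicate 2 came next and WT replicate 1 was lowest.

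Sirpa, the receptor for CD47 that marks cDC2 and macrophages, had 339 and 178 counts in P65KO and 30 and 37 in WT, a difference of 2.97 on the log2 scale. Itgam, the CD11b chain, had 168 and 62 counts in P65KO and 40 and 41 in WT. Both P65KO libraries were above WT for the CD11b chain, but replicate 2 much more narrowly, and the difference of 1.53 became 0.65 without P65KO replicate 1. Plbd1, a lysosomal phospholipase-like protein, had 419 and 209 counts in P65KO and 42 and 57 in WT, a difference of 2.69 without overlap.

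The difference was largest for Anpep, which encodes the membrane aminopeptidase CD13 of myeloid cells, with 92 and 59 counts in P65KO and 3 and 1 counts in WT. Its summed counts gave a ratio of 38.6 with an exact 95% interval of 14.8 to 144, and the fitted difference was 5.18 ± 0.48 on the log2 scale (SE), or 6.11 without WT replicate 1. Tbc1d9, a putative regulator of Rab GTPases, had 111 and 66 counts in P65KO and 5 and 6 in WT, a difference of 4.01. Every P65KO library of both genes lay far above every WT library. Fut4, the fucosyltransferase that helps to make the myeloid carbohydrate antigen CD15, had 56 and 35 counts in P65KO and 2 and 5 in WT, a difference of 3.69 that became 4.45 without WT replicate 2. Clec4a2, a C-type lectin receptor with an inhibitory tail, had 24 and 16 counts in P65KO and 2 and 3 in WT, a difference of 2.97. The WT libraries of these 2 genes were near the floor as well.

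Lyn, a Src family kinase of myeloid and B cells, had 219 and 84 counts in P65KO and 36 and 65 in WT, a difference of 1.61 that became 0.77 without P65KO replicate 1. Tlr7, an endosomal receptor for single-stranded RNA, had 261 and 247 counts in P65KO and 165 and 169 in WT. The groups did not overlap and the replicates of each were nearly level, with a difference of 0.64 ± 0.12 on the log2 scale (SE). Tlr7 lies on chromosome X, and the genotypes also differed in Xist as given above. The part of sex in its difference was not tested.

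Cebpa, which encodes C/EBP-alpha, a transcription factor needed for granulocyte and monocyte progenitors, went the other way. It had 77 and 15 counts in P65KO and 208 and 170 counts in WT, at 10.2 ± 9.66 CPM in P65KO and 40.9 ± 6.05 CPM in WT (SD, n = 2 each). Both P65KO libraries were below WT, the difference was -2.005 ± 0.39 on the log2 scale (SE), and it became -3.61 without P65KO replicate 1 and -1.265 without P65KO replicate 2. Its relative Cebpb, a factor of inflammatory macrophages, had 67 and 42 counts in P65KO and 57 and 78 in WT, with overlapping groups and a difference of -0.28 that did not pass and was 0.02 without P65KO replicate 2. Ctss had 2792 and 2527 counts in P65KO and 2880 and 2996 in WT. Both P65KO libraries were slightly below WT, and the difference of -0.11 on the log2 scale did not pass. Per gene length Ctss had the highest level of the 38 genes in WT, at a mean of 469 RPKM beside 434 RPKM in P65KO.

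Irf5, a transcription factor of Toll-like receptor signalling, had 161 and 71 counts in P65KO and 123 and 149 in WT. The WT libraries lay between the P65KO libraries, and the difference of -0.20, which did not pass, became -0.90 without P65KO replicate 1 and 0.27 without P65KO replicate 2. Fcgr3, a low-affinity activating receptor for IgG, had 74 and 8 counts in P65KO and 7 and 17 in WT. A single library stood above the other 3. The difference was 1.79 ± 0.75 on the log2 scale (SE) over all libraries, did not pass, and was -0.54 without P65KO replicate 1. It was 2.64 without P65KO replicate 2 and 2.56 without WT replicate 2.

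The shared sum was 1267 and 886.0 CPM in P65KO and 801.3 and 848.7 CPM in WT, a ratio of 1.31. Without Ctss it was 651.5 and 326.4 CPM in P65KO and 176.2 and 204.0 CPM in WT, a ratio of 2.57.

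**Figure D2:**
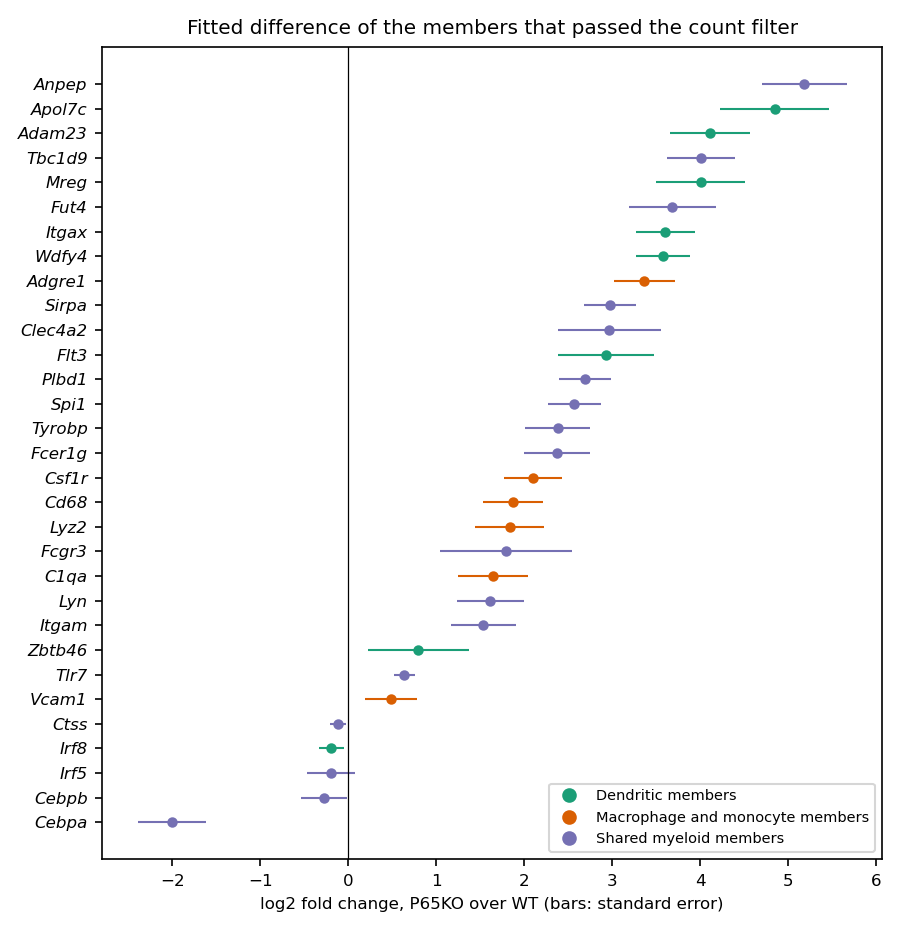
Fitted log2 fold change, P65KO over WT, of the 31 genes that passed the filter on low counts, with bars for the standard error and colours for the class. Anpep is highest at 5.18, most genes lie well above 0, Ctss, Irf8, Irf5 and Cebpb lie slightly below 0, and Cebpa is lowest at -2.005.

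Between the P65KO libraries most of the genes were higher in replicate 1. They had been chosen with the difference between the genotypes in these same libraries known, and 9 of them reach 20 counts in P65KO but not in WT, so the counts that follow are a description. Of 31 genes with at least 20 counts over both P65KO libraries, 31 were higher in replicate 1, and for 25 the exact 95% interval of the ratio lay wholly above 1. Over 10902 genes with at least 20 counts, 50.4% were higher in replicate 1, and for 9.89% the interval lay wholly above 1. The median of that ratio over those 10902 genes was 1.002, and the middle 95% of genes ran from 0.679 to 2.28. Of the 31 genes, 10 were above that range. The ratio was 3.29 for Lyz2, 2.90 for Apol7c, 2.77 for Flt3, 2.70 for Itgam and 2.60 for Lyn, and it was highest for Cebpa at 5.11 (2.92 to 9.57) and Fcgr3 at 9.21 (4.44 to 22.1). Itgax, at 1.94, and Adgre1, at 1.87, were within the range of all genes. With a single library on each side the ratio has no replicate check, and the intervals cover counting error only.

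With all their genes kept, the sums of the classes did not move by the same amount within P65KO. The dendritic sum was 1.76 times higher in replicate 1 than in replicate 2 (1.60 to 1.93), or 1.89 times (1.70 to 2.10) without Irf8. The macrophage and monocyte sum was 2.88 times higher (2.70 to 3.07), or 2.05 times (1.82 to 2.30) without Lyz2. The intervals of these classes overlapped once Irf8 and Lyz2 were left out. The shared sum was 1.43 times higher (1.37 to 1.49), or 1.996 times (1.87 to 2.13) without Ctss. That last interval overlapped the dendritic one without Irf8 and the macrophage and monocyte one without Lyz2. In WT the order was mostly the other way round, with 21 of 22 genes of at least 20 counts lower in replicate 1 than in replicate 2, and 5 of the 21 had an interval wholly below 1. Over 10987 genes with at least 20 counts in WT, 49.7% were lower in replicate 1, for 8.62% the interval lay wholly below 1, and the median ratio was 1.001. The exception among the 22 was Cebpa, at 1.23 (1.003 to 1.52).

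**Figure D3:**
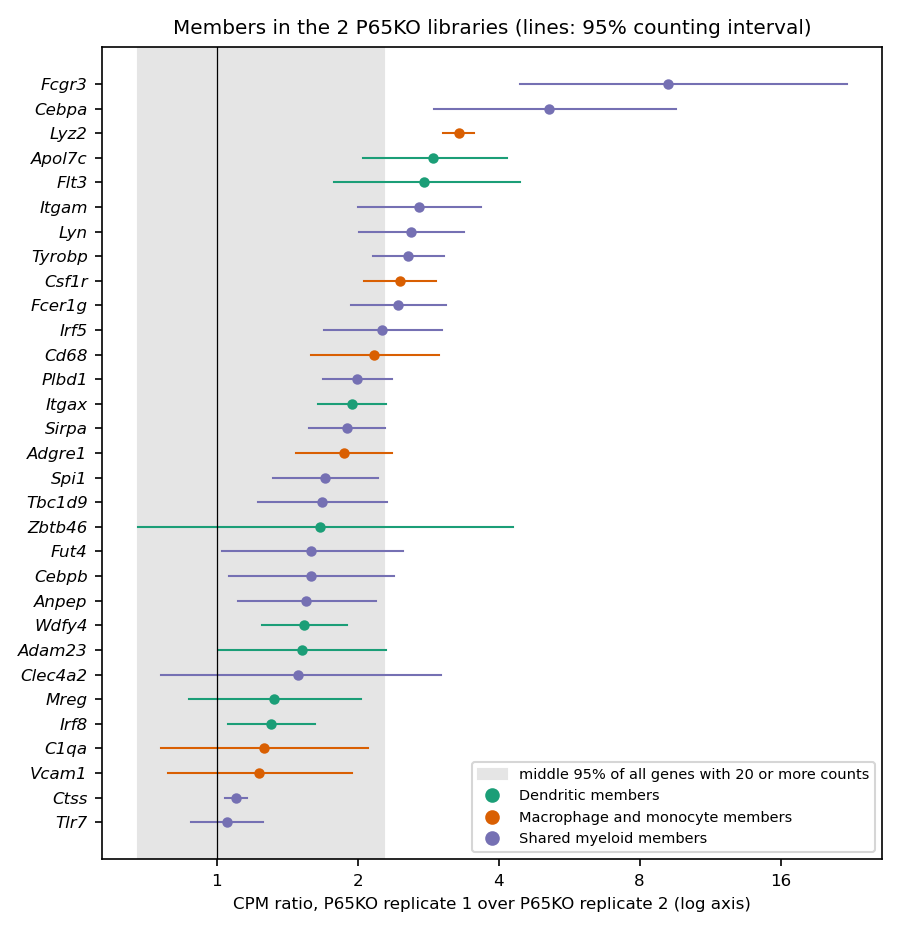
Ratio of P65KO replicate 1 to P65KO replicate 2 in CPM, on a log axis, for the 31 genes with at least 20 counts over both libraries, with exact 95% intervals for counting error. The grey band is the middle 95% of 10902 genes, 0.679 to 2.28. All 31 points lie above 1, and Fcgr3, Cebpa and Lyz2 lie furthest out.

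Itgax was set against macrophage genes per gene length, within each library, since the counts of different genes compare only after division by length. Itgax over Adgre1 was 1.62 and 1.56 in P65KO and 1.39 and 1.34 in WT, and the counting intervals of all 4 libraries overlapped. Itgax over Csf1r was 0.941 and 1.19 in P65KO and 0.273 and 0.427 in WT, and Itgax over Cd68 was 0.804 and 0.899 in P65KO and 0.183 and 0.313 in WT. Relative to Csf1r and to Cd68, Itgax was higher in each P65KO library than in each WT library, with no overlap of the intervals. That order follows from the larger fitted difference of Itgax between the genotypes. The genes were chosen with those differences known, so these ratios are a description and do not test the source of the transcripts. Itgax was the only dendritic gene used in them.

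The same order, which follows from the fitted differences in the same way, held against 3 other genes of the class. Itgax over Lyz2 was 0.0389 and 0.0660 in P65KO and 0.0119 and 0.0140 in WT. Itgax over C1qa was 3.02 and 1.96 in P65KO and 0.638 and 0.672 in WT, where the interval of P65KO replicate 2 reached down to 1.34 and that of WT replicate 1 up to 1.69. Itgax over Vcam1 was 7.67 and 4.87 in P65KO and 0.642 and 0.799 in WT.

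As a share of the summed length-scaled level of the dendritic and the macrophage and monocyte genes, dendritic genes took 10.03% and 15.6% in P65KO and 15.8% and 12.1% in WT. Lyz2 alone took 79.1% and 68.6% of it in P65KO and 71.9% and 77.4% in WT. With Lyz2 left out the dendritic share was 48.0% and 49.5% in P65KO and 56.2% and 53.5% in WT. With Irf8 left out as well it was 42.3% and 41.1% in P65KO and 18.6% and 20.7% in WT. The order of the genotypes turned with the genes kept in the sum.

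Genes outside the 38 were counted in marker lists, with tests in the fit over all genes. A gene low in WT could pass the filter on low counts through its P65KO libraries alone. The numbers of tested genes that rose, and medians over tested genes, are therefore descriptions. The lists were chosen with earlier results of these data known, so their counts and adjusted p-values are no independent evidence. Beside every list stand the shares over all genes tested, 8.996% past the threshold in the higher direction and 11.7% in the lower. In the 5 dendritic lists, 41 genes were listed and 17 could be tested, of which 10 rose and 2 fell in P65KO and 5 did not pass. The median over the tested genes was 1.78 on the log2 scale, beside 0.00 over all genes tested. Fewer of these genes rose with either WT library left out, and fewer of all genes tested rose in those fits too.

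In the cDC2 list, 4 of 4 tested genes of 7 listed rose. Their WT counts were low, so they passed the filter mainly through P65KO, and that number is a description. Clec4a4, the C-type lectin DCIR2 of splenic cDC2, had 43 and 17 counts in P65KO and 1 and 0 in WT, a ratio of 61.4 with an exact 95% interval of 10.6 to 2463. Its edgeR adjusted p was 6.64e-04, and 0.0528 without WT replicate 2. Cd209a, a lectin of the DC-SIGN family, had 73 and 52 counts in P65KO and 5 and 14 in WT, and its difference of 2.73 on the log2 scale had an edgeR adjusted p of 3.98e-04. In both lectin genes the libraries of the genotypes were well apart. Sirpb1a, a relative of Sirpa, had 113 and 35 counts in P65KO and 6 and 12 in WT, a difference of 3.05 with an edgeR adjusted p of 0.00172. With no filter on low counts that p was 0.11. The difference became 2.65 without WT replicate 1 and 3.63 without WT replicate 2. Clec12a, an inhibitory lectin of myeloid cells, had 49 and 28 counts in P65KO and 6 and 8 in WT, a difference of 2.47 with an edgeR adjusted p of 0.00169, and 0.0519 without WT replicate 2. The list summed to 69.69 and 30.56 CPM in P65KO and 4.775 and 8.392 CPM in WT, without overlap.

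The cDC1 list was low throughout, with 1 of its 7 genes tested. That gene, Naaa, an amidase of lipid signalling, had 109 and 53 counts in P65KO and 64 and 93 in WT and did not pass, with an edgeR adjusted p of 0.886. The list summed to 29.77 and 19.04 CPM in P65KO and 15.19 and 22.81 CPM in WT, which overlapped. Whether the cDC1 and cDC2 lists differ in their change was not tested.

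Genes of the core conventional dendritic list moved in both directions, with 3 of 6 tested genes higher, 1 lower and 2 not passing. Kmo, an enzyme of tryptophan breakdown, had 76 and 39 counts in P65KO and 4 and 5 in WT, a difference of 3.67 on the log2 scale with an edgeR adjusted p of 1.40e-04. Tbc1d8, a Rab GTPase regulator, had 78 and 26 counts in P65KO and 10 and 8 in WT, with an edgeR adjusted p of 0.00383, and 0.129 without WT replicate 2. Cd86, a costimulatory ligand of CD28 that activated lymphocytes also carry, fell to 119 counts in both P65KO libraries, against 224 counts in both WT libraries, a difference of -0.88 with an edgeR adjusted p of 4.19e-04. Cst3, the protease inhibitor cystatin C, had 611 and 353 counts in P65KO and 371 and 456 in WT, and its P65KO libraries lay on either side of both WT libraries. Ass1, an enzyme of arginine synthesis, had 51 and 64 counts in P65KO and 74 and 84 in WT and did not pass.

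In the list of mature and migratory dendritic cells, 2 of 10 genes could be tested and both rose. Both were low in WT and passed the filter mainly through P65KO. Fscn1, the actin-bundling protein fascin, had 71 and 35 counts in P65KO and 10 and 6 in WT, a difference of 2.74 on the log2 scale with an edgeR adjusted p of 8.43e-04, and 0.0641 without WT replicate 2. Cacnb3, a calcium channel subunit, had 18 and 11 counts in P65KO and 4 in each WT library, with an edgeR adjusted p of 0.0378 that was 0.274 in DESeq2. Without P65KO replicate 1 its adjusted p was 0.161 in edgeR. In the plasmacytoid list, 1 of 4 tested genes rose and 1 fell. Atp1b1, a sodium pump subunit, had 304 and 316 counts in P65KO and 168 and 180 in WT, and Runx2, a transcription factor, had 32 and 23 counts in P65KO and 114 and 100 in WT. The list summed to 194.7 and 213.0 CPM in P65KO and 211.2 and 166.3 CPM in WT, which overlapped.

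In the macrophage list, 16 of 17 genes were in the table and 6 could be tested, of which 3 rose, 1 fell and 2 did not pass. Adgre4, a relative of F4/80 on myeloid cells, had 149 and 59 counts in P65KO and 16 and 19 in WT, a difference of 2.59 on the log2 scale with an edgeR adjusted p of 6.77e-04, and 0.0801 without WT replicate 1. Axl, a receptor for apoptotic cells, fell to 80 and 78 counts in P65KO, against 551 and 459 counts in WT, a difference of -2.64 with an edgeR adjusted p of 8.23e-08. Sepp1, the selenium carrier selenoprotein P, was abundant at 1900 and 1840 counts in P65KO and 2008 and 2195 in WT and did not pass. Vsig4, a complement receptor of tissue macrophages, had 0 counts in all 4 libraries. The whole list summed to 519.4 and 469.2 CPM in P65KO and 575.6 and 599.7 CPM in WT, with both P65KO libraries lower. Sepp1 alone made up most of that sum, at 419 and 407 CPM in P65KO and 436 and 472 CPM in WT. Axl and Sepp1 were the 2 genes of the list with both P65KO libraries below both WT libraries. Another 8 had both above, some of them under the filter on low counts, beside 29.7% of all genes tested, and 6 overlapped. Without Axl, a setting chosen after seeing the data, it summed to 501.7 and 452.0 CPM in P65KO and 456.0 and 500.9 CPM in WT, and the groups overlapped.

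The monocyte list had 6 of 7 tested genes higher and 1 not passing. Fn1, which encodes fibronectin, had 449 and 126 counts in P65KO and 47 and 57 in WT, a difference of 2.495 on the log2 scale with an edgeR adjusted p of 0.00204, and 0.141 without WT replicate 1. Ace, the angiotensin-converting enzyme, had 209 and 69 counts in P65KO and 32 and 40 in WT. Its edgeR adjusted p of 0.00462 was 0.159 with no filter on low counts and 0.0813 in DESeq2. Both genes were far higher in P65KO replicate 1 than in the other 3 libraries. Treml4, a receptor of a non-classical monocyte subset, had 54 and 25 counts in P65KO and 4 and 13 in WT, with an edgeR adjusted p of 0.00899. With no filter on low counts that p was 0.142. Its difference of 2.23 on the log2 scale became 1.58 without P65KO replicate 1, 1.63 without WT replicate 1 and 3.29 without WT replicate 2. Ms4a4c, a membrane protein of the MS4A family, had 539 and 509 counts in P65KO and 293 and 345 in WT and differed by 0.75 with an edgeR adjusted p of 3.56e-04. The list summed to 359.5 and 188.4 CPM in P65KO and 99.40 and 121.6 CPM in WT. Over the macrophage and monocyte lists together, 9 of 13 tested genes rose. Fewer of them rose with either WT library or P65KO replicate 1 left out, and fewer of all genes tested rose in those fits too.

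Genes of signalling below myeloid receptors stood above WT in both P65KO libraries for 12 of 12, beside 29.7% of all genes tested. The 12 include 2 genes under the filter on low counts, a kind of gene that this share leaves out. Among the 12, Trem2 had only 1 and 2 counts in P65KO and 1 and 0 in WT, so its order rests on scaling. Of 10 tested, 9 rose, beside 8.996% of all genes tested, and 1 did not pass. Fgr, a Src family kinase of phagocytes, had 189 and 115 counts in P65KO and 39 and 41 in WT, a difference of 1.95 on the log2 scale with an edgeR adjusted p of 1.17e-04. Both P65KO libraries were well above WT for this kinase. Csf2rb, the shared signalling chain of the receptors for GM-CSF, IL-3 and IL-5, had 180 and 56 counts in P65KO and 13 counts in each WT library. Its difference of 3.20 had an edgeR adjusted p of 6.62e-04, and 0.0823 without WT replicate 1. Its close copy Csf2rb2, the chain of the mouse IL-3 receptor, had 134 and 19 counts in P65KO and 6 and 13 in WT, and its edgeR adjusted p of 0.0120 was 0.134 in DESeq2 and 0.224 in edgeR without P65KO replicate 1. Reads of this pair may be shared, which was not tested. The list summed to 256.3 and 117.1 CPM in P65KO and 32.12 and 43.25 CPM in WT.

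Toll-like receptor genes other than Tlr7 moved in both directions, with 2 of 7 tested genes higher, 2 lower and 3 not passing. Tlr9, the endosomal receptor for DNA, had 105 and 32 counts in P65KO and 13 and 18 in WT, with an edgeR adjusted p of 0.00762. With no filter on low counts that p was 0.163. Its difference of 2.17 on the log2 scale became 1.075 without P65KO replicate 1, 1.96 without WT replicate 1 and 2.415 without WT replicate 2. Tlr13, the mouse receptor for bacterial ribosomal RNA, had 108 and 40 counts in P65KO and 16 and 14 in WT, with an edgeR adjusted p of 0.00242, and 0.112 without WT replicate 2. Tlr13 is also X-linked in the mouse. Unc93b1, the chaperone that carries these receptors to endosomes, averaged 58.8 ± 18.6 CPM in P65KO and 42.0 ± 9.42 CPM in WT (SD, n = 2 each) and did not pass.

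**Figure D4:**
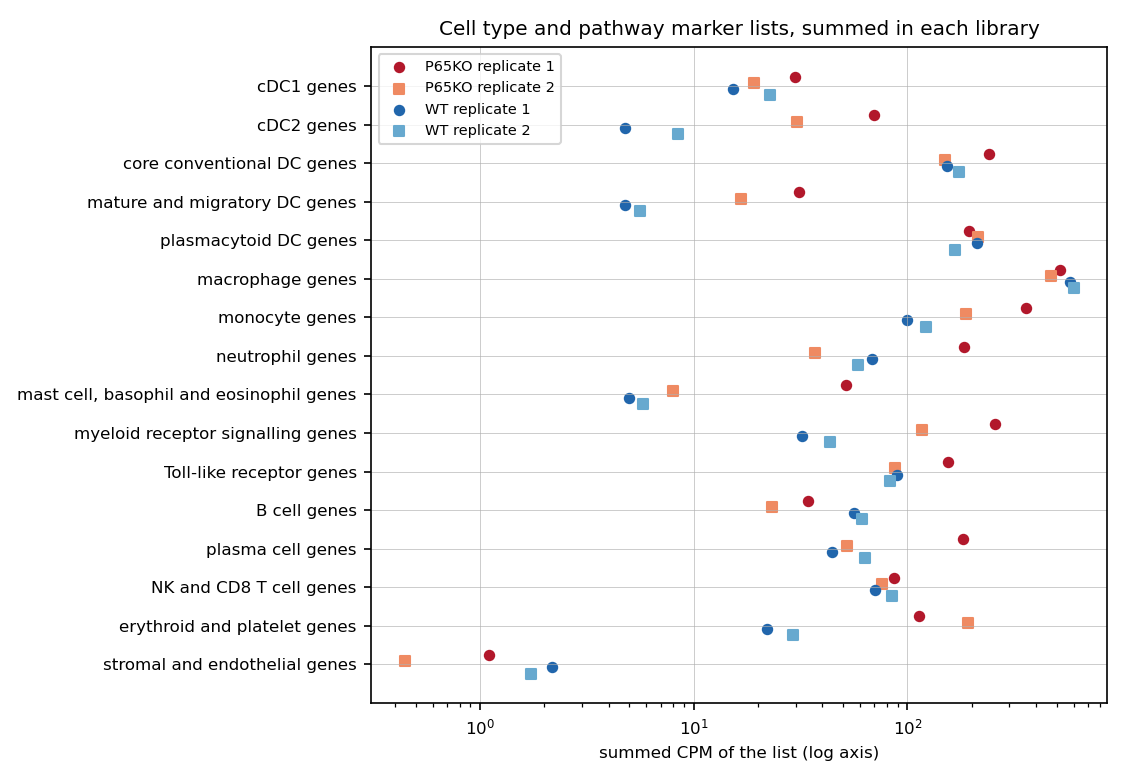
Summed CPM of the cell type and pathway marker lists that hold none of the 38 genes, without the Treg and T cell list and the sex-linked list, in each library, on a log axis, with P65KO in red and orange and WT in blue. The cDC2, mature dendritic, monocyte, mast cell, myeloid signalling and erythroid lists have both P65KO points above both WT points, the B cell, macrophage and stromal lists have both below, and the neutrophil list separates P65KO replicate 1 from the other 3 libraries. Sepp1 alone makes up most of the macrophage sum.

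Markers of further cell types moved between the same libraries, and their part in the values of the 38 genes was not tested. In the neutrophil list, 15 genes summed to 185.0 and 36.98 CPM in P65KO and 68.36 and 58.53 CPM in WT, 5.003 times higher in P65KO replicate 1 than in replicate 2 (4.23 to 5.94). S100a8, an abundant calcium-binding protein of neutrophils, had 118 and 12 counts in P65KO and 39 and 33 in WT, did not pass, and without P65KO replicate 1 had a difference of -1.54 with an edgeR adjusted p of 0.0252. Ly6g, a defining neutrophil marker, had 0 counts in both P65KO libraries and 1 and 0 in WT. It was 1 of 7 untested genes of the list, and others of the 7 did have counts. Cxcr2 had 43 and 3 in P65KO and 5 and 3 in WT, Camp had 34 and 3 in P65KO and 9 in each WT library, and Lcn2 had 25 and 4 in P65KO and 9 and 6 in WT. The rest of the 7 had at most 10 counts in any library. Of the 8 tested genes 1 rose, Cd177, a neutrophil surface protein, with 60 and 24 counts in P65KO and 7 and 9 in WT and an edgeR adjusted p of 0.00406, which was 0.125 without WT replicate 1. In the list of mast cells, basophils and eosinophils, 8 genes summed to 51.60 and 7.972 CPM in P65KO and 4.992 and 5.810 CPM in WT. Cpa3, a mast cell protease, was the single tested gene and had 51 and 15 counts in P65KO and 9 and 8 in WT. Its difference of 1.97 on the log2 scale became 0.845 without P65KO replicate 1. The edgeR adjusted p was 0.0257, and 0.199 with no filter on low counts. It was 0.0915 in limma-voom and 0.0617 in DESeq2.

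The B cell list summed to 34.40 and 23.25 CPM in P65KO and to 55.99 and 61.11 CPM in WT, with 2 of 3 tested genes lower and 10 of 13 genes under the filter. Cd79b, a chain of the B cell receptor complex, had 64 and 46 counts in P65KO and 156 and 182 in WT, with an edgeR adjusted p of 7.45e-05, whereas Pax5 and Ebf1, factors that define B cells, had 0 counts in all 4 libraries. In the plasma cell list, Jchain, which joins antibody subunits, had 790 and 229 counts in P65KO and 197 and 280 in WT and did not pass, with an edgeR adjusted p of 0.0617. The erythroid and platelet list summed to 113.4 and 193.1 CPM in P65KO and 21.92 and 29.05 CPM in WT, with 4 of 4 tested genes higher. Its libraries were ordered differently from the 38 genes, with P65KO replicate 1 at 0.587 of replicate 2 (0.525 to 0.655). The NK and CD8 T cell list summed to 86.45 and 75.73 CPM in P65KO and 70.32 and 84.57 CPM in WT, which overlapped. The 10 stromal and endothelial genes had at most 10 counts in all in any library.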

How the data were processed

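Sorted Treg cells gave RNA by an RNeasy Plus Mini kit, from which TruSeq RNA libraries were made, per the labels' protocols. The submitters' processing notes name the build GRCm38 (mm10) and the tools Subread, featureCounts and limma. Not given in the sources used here were versions, annotation and strand setting, so the 14 of the 38 genes that overlap another annotated gene are uncertain. The authors deposited raw counts per gene, and log2 RPKM values that held the same counts: computed back with an offset of 0.5, gene lengths were whole numbers within 0.1 for 27179 genes. Genes without a symbol, 0.453% to 0.562% of counts, were kept.

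After filterByExpr had removed low genes and TMM had scaled the libraries, 11172 genes were compared between the genotypes in edgeR 4.0.16 (R 4.3.3) by its two-sided quasi-likelihood F test, with Benjamini-Hochberg adjustment at 0.05. CPM values are TMM-scaled. RPKM-scale levels used the recovered lengths. Ratios of counts carry exact 95% conditional binomial (Clopper-Pearson) intervals, which cover counting error only, as do floors. The fitting was tested on simulated data. Coordinates and windows came from RefSeq tables of GRCm38.p6, the same build.

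The 38 genes and the 18 other marker lists (177 symbols, 174 in the table) were chosen with earlier results of these data known, so their counts are no independent evidence. All 38 are named, and from each list up to 3 tested genes with the highest mean CPM and up to 2 with the largest change among those past the threshold were eligible to be named. Ly6g, Cxcr2, Camp, Lcn2, Pax5, Ebf1, Vsig4 and Trem2 were named outside that rule, as were Rela and the relatives of Apol7c and Lyz2. Alternatives were other scalings, no filter, DESeq2 1.42.0, limma 3.58.1 (voom), the replicate block and leaving out each library.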

Additional observations from a re-analysis of the deposited data

How the results depend on the processing

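No direction among the counts and summed ratios reversed under the alternatives run, and the cause of each shift was not tested. Of all genes tested, 2310 passed, against 771 with no filter on low counts, 1318 with DESeq2 and 916 to 1676 with a library left out. The dendritic list genes past the threshold numbered 12, against 5 with no filter and 5 to 13 with a library left out. The macrophage and monocyte list genes past it numbered 10, against 2 with no filter, 6 with DESeq2 and 2 to 11 with a library left out. The ratio of summed CPM ran from 2.52 to 4.43 for dendritic genes, from 1.90 to 5.47 for macrophage and monocyte genes and from 1.07 to 1.54 for shared genes with a library left out. It was 10.5 for dendritic genes without Irf8 and 2.57 for shared genes without Ctss, settings chosen after seeing the data. Same-numbered libraries did not deviate together (correlation -0.137 over genes), so numbers were not used as pairs. With the replicate block 2319 genes passed, and with the crossed pairing, also chosen after seeing the data, 2973. Of the fitted differences under alternatives of the 31 genes past the filter, 281 moved by less than the replicate spread and 29 by more. Among those 29, Fcgr3 changed sign to -0.54. Irf5 and Cebpb, which did not pass, changed sign to 0.27 and 0.02 without P65KO replicate 2. For named list genes, 459 of the alternative values kept their direction and their side of the threshold, 69 lost it, 11 gained it and 11 changed sign. With a library left out the differences of those that changed sign ran from -0.53 to 0.50 for Naaa, -0.19 to 0.59 for Cst3, -0.25 to 0.26 for Pacsin1, -0.51 to 1.86 for S100a9, -1.54 to 1.74 for S100a8, -0.067 to 0.018 for Tlr6, -0.023 to 1.76 for Jchain and -0.40 to 0.20 for Gzma. The macrophage list, whose sum was mostly Sepp1, had a summed ratio of 0.997 without Axl, chosen after seeing the data. Dividing by library totals alone gave 823 higher and 1485 lower genes. Genes under the filter on low counts were given as counts and ratios, with no fitted difference.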
